A study of Solanum lycopersicum with 120 samples.

Results

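In wild-type tomato seedlings of cultivar M82, 15 of the 17161 genes in the normalized time-course table were higher in the hypocotyl under low red to far-red light (low R/FR) at both 6 h and 24 h, while the ratio used for the choice stayed under a limit in the epicotyl. The members were chosen on R, the log2 ratio of the mean of the 3 low R/FR libraries plus 1 to the mean of the 3 white-light libraries plus 1, in normalized CPM, read counts scaled to the size of each library. R had to be at least 0.8 in the hypocotyl at 6 h and at 24 h, and under 0.4 in the epicotyl at 6 h and at 24 h. A total of 238 genes met the hypocotyl limits, and 223 of them reached the epicotyl limit at 6 h or 24 h and were left out. The 15 genes are called stem-split genes here, since the rule compared the lower with the upper stem only and did not look at cotyledons or first leaf. Because the rule used WT hypocotyl and epicotyl values at 6 h and 24 h, those values are given as a description without a test. The members were tested at 3 h, in the leafy organs and within the mutants, which the rule did not use.

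The series held 120 mRNA libraries, in 40 groups of 3 biological replicates, each replicate being a pool of 4 seedlings. Seedlings 12 days old were grown in long days at 24 °C and about 200 µmol m−2 s−1 of light, and were kept in white light (24WL) or given added far-red light to an R/FR of 0.6 (24FR) from the morning on. WT cotyledons, first leaf, epicotyl (the stem above the cotyledons) and hypocotyl (the stem below them) were sampled at 3, 6 and 24 h. These samples fall at different hours of the day, and those of 24 h follow a night. Length of exposure and hour of day therefore cannot be told apart in any comparison between times. The slpif8a mutant and the slpifq mutant, in which SlPIF4, SlPIF7a, SlPIF7b and SlPIF8a carry CRISPR–Cas9 mutations, were sampled in the same organs at 6 h only. The labels name no allele, and no second allele of either mutant was analysed here. Whole organs were sampled, so fewer cells of a type and less RNA per cell cannot be told apart in any value below.

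Plants read a fall in R/FR through phytochrome B as a sign of neighbours, and its loss of activity frees PHYTOCHROME-INTERACTING FACTORS (PIFs), basic helix-loop-helix transcription factors, to act on growth genes. Stems then elongate, which needs the primary cell wall to yield while new wall is laid down. Expansins loosen the wall, xyloglucan endotransglucosylases cut and rejoin its tethers, and pectinesterases change the charge of its pectin.

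Libraries held 15905765 to 33913236 reads assigned to genes, and no library stood apart from its replicates. SlATHB2 (Solyc08g078300), the tomato homologue of a shade-induced homeodomain-leucine zipper gene of Arabidopsis, rose at 3 h by 3.38 ± 0.20 log2 units (± SE throughout for fold changes) in WT hypocotyl and by 3.00 ± 0.20 in WT epicotyl (edgeR quasi-likelihood test, adjusted p = 7.3e-19 and 6.1e-17, n = 3 against 3). The light treatment thus registered in both parts of the stem. SlPIF8a was read at 17.9 to 35.6 CPM in the 6 slpif8a hypocotyl libraries and at 9.91 to 36.4 CPM in the 6 WT ones. Mutations of coding sequence need not change transcript level, so this range does not check the genotype labels. Summed over 14 genes for chlorophyll a-b binding proteins, markers of green tissue, hypocotyl libraries read 1205 to 3172 CPM against 2820 to 34790 in cotyledons and 10910 to 42720 in first leaf. In the hypocotyl this sum was lower in 24FR than in 24WL at 6 h (1857 to 2247 against 2548 to 3164 CPM) and at 24 h (1205 to 1224 against 1449 to 1741 CPM). The sum over 32 mitotic cyclin and kinesin genes, markers of dividing cells, was higher in 24FR at 6 h (640.3 to 723 against 552 to 626 CPM) and at 24 h (628 to 680.1 against 531 to 587 CPM). In the epicotyl the chlorophyll-binding sum was also lower in 24FR at 24 h (775 to 867 against 1005 to 1084 CPM) and overlapped at 6 h. The mitotic sum was higher in the epicotyl in 24FR at 6 h (1123 to 1207 against 968 to 1074 CPM) and at 24 h (1569 to 1705 against 843 to 877 CPM). Both lists were drawn from descriptions in the study's tables, which describe mostly genes called there. The direction of these sums with 24FR is therefore not independent evidence. The part of either in the members' values was not tested. The sources named no marker that separates hypocotyl from epicotyl.

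Among the 15 genes, 13 had a description in the study's annotation and 2 (Solyc12g006973 and Solyc02g062690) had none. On the R scale they spanned 0.82 to 2.21 at 6 h and 0.81 to 2.15 at 24 h in the hypocotyl, with 9 larger at 6 h and 6 larger at 24 h. In the epicotyl R lay between -0.08 and 0.35 at 6 h and between -0.47 and 0.33 at 24 h. Near the limits, Solyc02g062690 was just inside with 0.88 and 0.81 in the hypocotyl, and Solyc12g006997 just outside with 0.79 and 0.83. On the epicotyl side, Solyc12g006973 was just inside with 0.35 and 0.30, and Solyc01g089850, described as a U-type cyclin, was just outside with 0.43 and 0.24. With a pseudocount of 0.1 in place of 1 the same rule gave 19 genes, of which 11 were among the 15. The 4 that dropped out were Solyc08g080670, Solyc08g067310, Solyc01g087840 and Solyc04g063245. A pseudocount of 1 hides changes well below 1 CPM, and without it the fitted epicotyl change of Solyc08g067310 was 1.15 ± 0.63 at 6 h and that of Solyc08g080670 was 3.27 ± 2.20 at 24 h, on few counts.

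**Figure D1:**
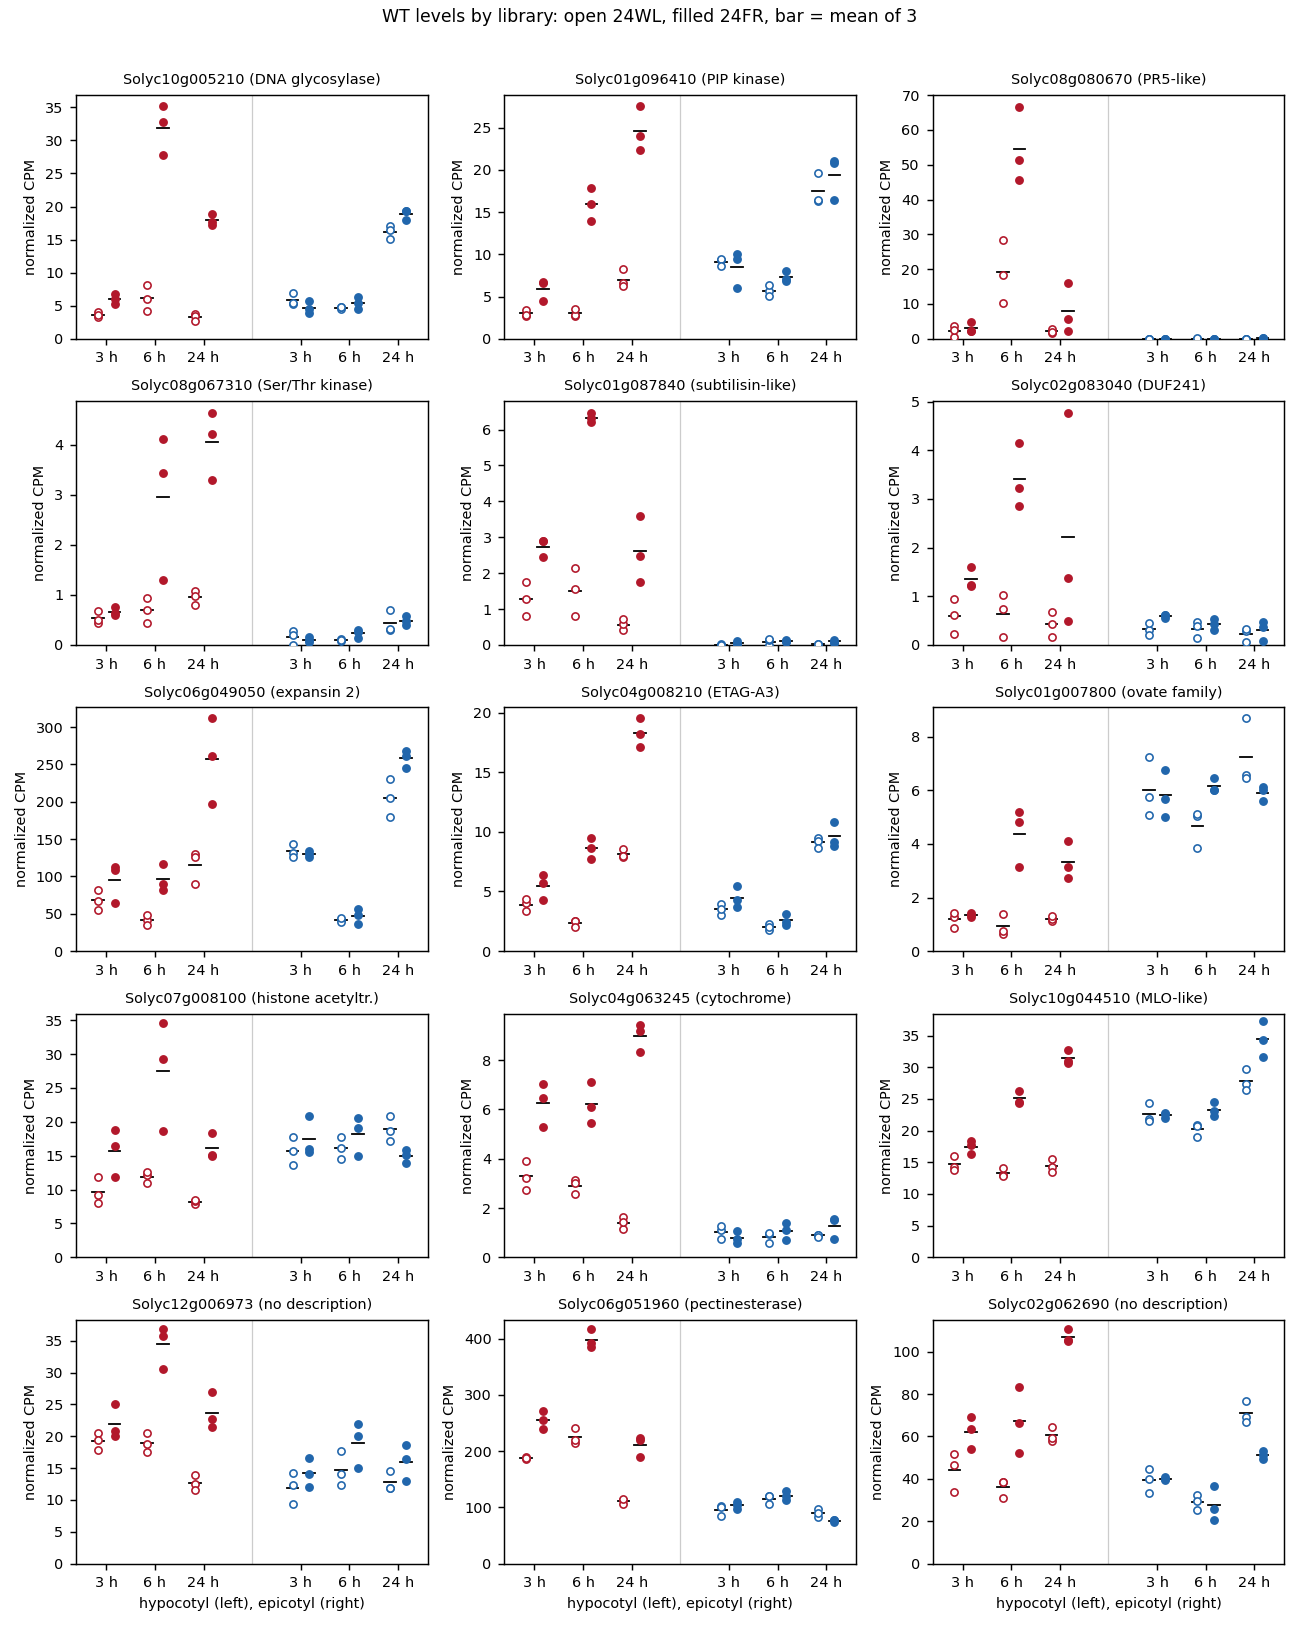
Normalized CPM of the 15 genes in each WT stem library, 1 panel per gene, by time (3, 6 and 24 h), with hypocotyl in red on the left and epicotyl in blue on the right, open symbols for 24WL, filled symbols for 24FR and bars for the mean of 3 libraries. In the hypocotyl at 6 h every filled symbol lies above every open one in all 15 panels, which the choice of genes favours.

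Every 24FR library was above every 24WL library for all 15 genes in the hypocotyl at 6 h, where 19.0% of all genes did so, and for 13 genes at 24 h, where 23.8% did so. In the epicotyl this held for 4 genes at 6 h (19.1% of all genes) and 5 at 24 h (34.8%). These counts follow from the choice of genes and carry no test.

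Of the cell-wall genes, expansin 2 (Solyc06g049050), a wall-loosening protein most like Arabidopsis EXPA8, had 41.8, 35.4 and 48.2 CPM in the hypocotyl in 24WL at 6 h and 116, 82.4 and 89.3 CPM in 24FR. At 24 h it had 130, 89.7 and 126 CPM in 24WL and 313, 261 and 197 CPM in 24FR. The epicotyl carried the transcript too, with 230, 180 and 206 CPM in 24WL at 24 h and 245, 262 and 269 CPM in 24FR. The lower stem in 24FR thus overlapped at 24 h the range of the upper stem in either light. The pectinesterase gene Solyc06g051960 had 215, 241 and 220 CPM in the hypocotyl in 24WL at 6 h and 416, 393 and 385 CPM in 24FR. Its epicotyl libraries lay between 73.4 and 130 CPM at every time in both lights, below all hypocotyl libraries in 24FR. ETAG-A3 (Solyc04g008210), a xyloglucan endotransglucosylase most like Arabidopsis XTH27, had 2.49, 2.52 and 1.99 CPM in the hypocotyl in 24WL at 6 h and 8.62, 7.69 and 9.52 CPM in 24FR. In the epicotyl it had 1.74, 2.3 and 1.98 CPM in 24WL and 3.13, 2.23 and 2.42 CPM in 24FR, and these ranges overlap.

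Other genes of the same wall families were read from descriptions in the study's tables, which describe mostly genes called there, so the lists are not independent evidence of direction. Members were left out, and the rule had used the stem values of 6 h and 24 h. Counts at those times are therefore a description and do not weigh the stem parts against each other. Of the 6 other described expansins, 3 passed the test as higher in the hypocotyl at 3 h, 3 at 6 h and 4 at 24 h, and 1, 2 and 0 in the epicotyl. Of the 11 described xyloglucan endotransglucosylases, 0 passed as higher in either stem part at 3 h, 6 in the hypocotyl and 3 in the epicotyl at 6 h, and 5 in each at 24 h. In each family 1 gene passed as lower in the hypocotyl at 6 h and 24 h. The expansin was Solyc03g093390, by -1.54 ± 0.39 and -4.94 ± 0.53 log2 units. The xyloglucan endotransglucosylase was Solyc11g066270, by -1.36 ± 0.24 and -1.37 ± 0.24. It also passed as lower in the epicotyl at 6 h, by -1.37 ± 0.35. Of all genes tested, the share higher with both limits was 0.71%, 2% and 2.06% in the hypocotyl at 3, 6 and 24 h and 0.429%, 1.27% and 2.6% in the epicotyl.

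Signalling genes formed another group. Solyc01g096410 encodes a phosphatidylinositol 4-phosphate 5-kinase, which makes the membrane lipid PI(4,5)P2 that guides secretion and the cytoskeleton. It had 2.74, 2.75 and 3.58 CPM in the hypocotyl in 24WL at 6 h and 17.9, 16 and 14 CPM in 24FR. At 24 h it had 6.55, 6.19 and 8.28 CPM in 24WL and 22.3, 27.6 and 24.0 CPM in 24FR. In the epicotyl it had 5.69, 5.03 and 6.37 CPM in 24WL at 6 h and 6.80, 8.06 and 7.11 CPM in 24FR, so white-light epicotyl stood above white-light hypocotyl. Solyc08g067310 encodes a serine/threonine kinase most like Arabidopsis CIPK25, of a family that calcineurin B-like calcium sensors activate. It had 0.707, 0.442 and 0.937 CPM in the hypocotyl in 24WL at 6 h and 1.30, 3.44 and 4.11 CPM in 24FR. No WT epicotyl library passed 0.701 CPM, or 22 counts, for this kinase.

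Among the genes for secreted and membrane proteins, Solyc08g080670 and Solyc01g087840 had almost no transcript in the upper stem. Solyc08g080670 encodes a PR5-like (osmotin or thaumatin-like) protein, a class of secreted defence protein. It had 10.4, 28.5 and 18.4 CPM in the hypocotyl in 24WL at 6 h and 51.3, 45.6 and 66.7 CPM in 24FR. At 24 h it had 2.75, 1.65 and 1.99 CPM in 24WL and 16, 5.58 and 2.11 CPM in 24FR, and the groups overlapped. Across 18 WT epicotyl libraries it never passed 8 counts. Solyc01g087840, a subtilisin-like serine protease, had 0.8, 2.14 and 1.56 CPM in the hypocotyl in 24WL at 6 h and 6.32, 6.47 and 6.21 CPM in 24FR, against at most 6 counts in any WT epicotyl library. The MLO-like gene Solyc10g044510, of a family of plant membrane proteins known for powdery mildew susceptibility, had 12.9, 12.8 and 14.1 CPM in 24WL at 6 h and 26.3, 24.6 and 24.3 CPM in 24FR. Its epicotyl libraries went from 19.0 to 20.9 CPM in 24WL and from 22.3 to 24.5 CPM in 24FR at 6 h, which is close to the hypocotyl level in 24FR.

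Nuclear proteins were represented by 3 genes. Solyc10g005210, a DNA-3-methyladenine glycosylase I, belongs to the enzymes that start base excision repair by removing alkylated bases. It had 4.18, 6.02 and 8.06 CPM in the hypocotyl in 24WL at 6 h and 35.2, 32.8 and 27.8 CPM in 24FR. In the epicotyl it had 4.54, 4.73 and 4.79 CPM in 24WL at 6 h and 4.47, 6.37 and 5.34 CPM in 24FR. At 24 h the hypocotyl in 24FR (18.9, 17.6 and 17.1 CPM) stood near the epicotyl in white light (17.1, 15 and 16.5 CPM), while the hypocotyl in white light had 3.71, 3.47 and 2.64 CPM. Ovate family protein 2 (Solyc01g007800) belongs to a family of transcriptional repressors in Arabidopsis whose founding member shapes tomato fruit. It had 1.38, 0.646 and 0.767 CPM in the hypocotyl in 24WL at 6 h and 4.83, 5.19 and 3.15 CPM in 24FR, against 3.83 to 6.47 CPM in the epicotyl in either light. Solyc07g008100, described as a histone acetyltransferase, a class that loosens chromatin by acetylating histones, had 12.1, 12.6 and 11.0 CPM in 24WL at 6 h and 34.6, 29.2 and 18.7 CPM in 24FR.

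Of the remaining genes, Solyc04g063245, described only as a cytochrome, had 1.63, 1.15 and 1.43 CPM in the hypocotyl in 24WL at 24 h and 9.19, 8.35 and 9.45 CPM in 24FR. Solyc02g083040, with a DUF241 domain of unknown function, had 0.154, 0.748 and 1.02 CPM in 24WL at 6 h and 2.86, 4.16 and 3.23 CPM in 24FR. At 24 h its hypocotyl groups overlapped, with 0.160, 0.680 and 0.424 CPM against 0.491, 1.37 and 4.77 CPM. The undescribed gene Solyc12g006973 had 17.6, 18.7 and 20.5 CPM in 24WL at 6 h and 30.6, 36.9 and 35.7 CPM in 24FR. The other, Solyc02g062690, had 57.7, 59.4 and 64.7 CPM in 24WL at 24 h and 105, 111 and 106 CPM in 24FR. In the epicotyl at that time it went the other way, with 69, 67 and 76.8 CPM in 24WL and 53.1, 51.1 and 49.2 CPM in 24FR. Solyc01g087840 passed the filter on low counts only through the 3 hypocotyl 24FR libraries at 6 h, and Solyc02g083040 only through 24FR libraries, so both reached the tests through the light in which they are high, and counts are also given over the other 13.

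At 3 h, a time the rule did not use, all 15 fitted changes in the hypocotyl were above 0, with a median of 0.49 log2 units, against 53.8% of all genes above 0 and a median of 0.02. With an adjusted p below 0.05 and a change of more than 1 log2 unit (edgeR quasi-likelihood test, 17469 genes), 1 of the 15 genes was higher, and 0.71% of all genes tested were. By adjusted p alone 6 were higher (5.52% of all genes), and 9 had every 24FR library above every 24WL library (18.7%). The gene past both limits was the subtilisin-like protease Solyc01g087840, with 1.27, 0.812 and 1.77 CPM in 24WL and 2.45, 2.88 and 2.88 CPM in 24FR. It rose by 1.10 ± 0.37 (adjusted p = 0.047), and this call was lost on leaving out any 1 of 5 of the 6 libraries, with adjusted p from 0.076 to 0.232. It was kept without 24WL replicate 3. As this gene passed the filter only through 24FR hypocotyl libraries, its call gives no support, and over the 13 genes let in by other libraries 0 were higher with both limits and 5 by adjusted p alone.

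The other 5 rose by less than the fold limit at 3 h. The PIP kinase gene Solyc01g096410 had 3.4, 2.74 and 2.86 CPM in 24WL and 6.74, 6.57 and 4.47 CPM in 24FR, a rise of 0.98 ± 0.20 (edgeR adjusted p = 5.1e-04). The cytochrome gene Solyc04g063245 had 2.73, 3.89 and 3.23 CPM in 24WL and 5.28, 7.02 and 6.47 CPM in 24FR, a rise of 0.93 ± 0.21 (adjusted p = 0.0019). The pectinesterase gene Solyc06g051960 had 186, 189 and 188 CPM in 24WL and 256, 272 and 240 CPM in 24FR, a rise of 0.45 ± 0.09 (adjusted p = 2.7e-04). For these 3 genes no 24FR library overlapped a 24WL library. The DNA glycosylase gene Solyc10g005210 rose by 0.72 ± 0.24 (adjusted p = 0.040) and the histone acetyltransferase gene Solyc07g008100 by 0.70 ± 0.19 (adjusted p = 0.012). Expansin 2 changed by 0.47 ± 0.29 (adjusted p = 0.32), and its 24FR libraries (112, 108 and 63.9 CPM) overlapped its 24WL libraries (82.5, 55.4 and 67.3 CPM).

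**Figure D2:**
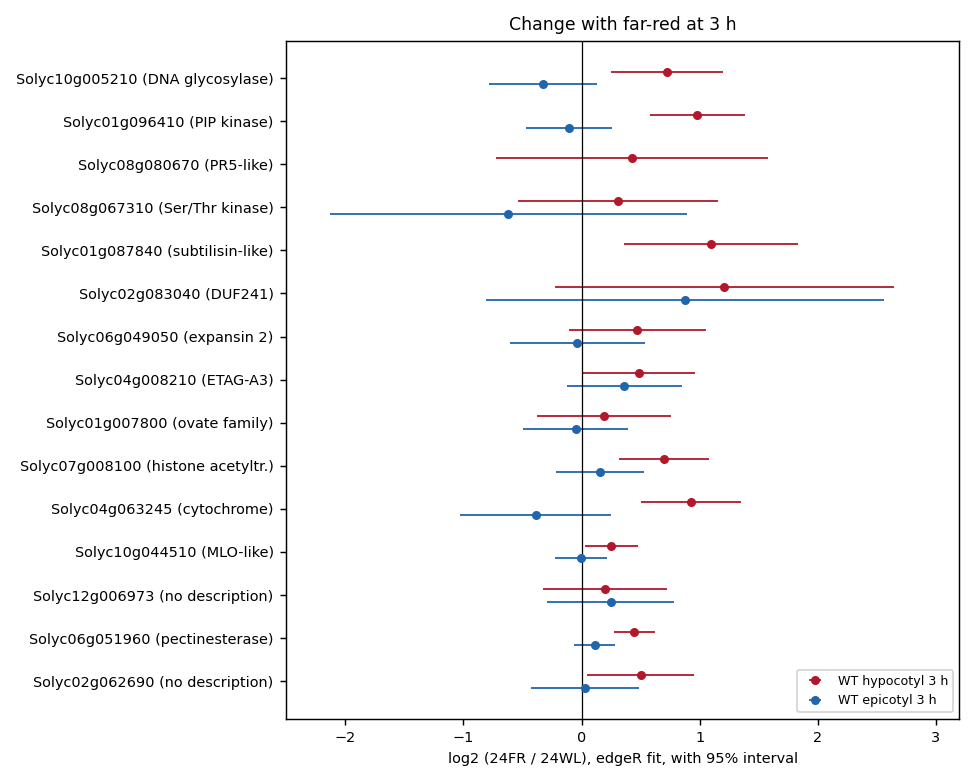
Log2 change from 24WL to 24FR at 3 h in WT hypocotyl and epicotyl for each gene, with the 95% interval of the edgeR fit (3 libraries against 3). All 15 hypocotyl points lie above 0, and the epicotyl points of Solyc08g080670 and Solyc01g087840 are not drawn because their counts are at or near 0.

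In the epicotyl at 3 h, 0 of the 15 genes were higher (edgeR, 0.429% of all genes), 0 had an unadjusted p under 0.05 and DESeq2 called 0. The fitted changes were above 0 for 7 genes, below 0 for 7 and at 0 for 1, against 49.3% of all genes above 0. Only the DUF241 gene Solyc02g083040 had every 24FR library above every 24WL library (1 of 15, 9.57% of all genes), at most 0.616 CPM. The difference between the stem parts was tested directly as the response in the hypocotyl minus that in the epicotyl. No member passed in edgeR at an adjusted p under 0.05 (0 of 15, with 0.12% of all genes passing), 5 had an unadjusted p under 0.05 and DESeq2 called 2. The share of all genes at an unadjusted p or in DESeq2 was not counted. Such counts, here and below, are therefore not a result about the members. The lowest p was that of the PIP kinase gene Solyc01g096410, whose response was higher in the hypocotyl by 1.09 ± 0.27 log2 units (adjusted p = 0.069). The count depended on the fit. It was 2 with the likelihood ratio test and 1 in a fit to stem libraries only or with a replicate block. The main fit took hypocotyl and epicotyl libraries as unpaired. In all, 13 of the 15 differences were above 0, against 54.2% of all genes. Over the 13 genes that passed the filter outside 24FR libraries, 12 were.

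The level in white light was compared between the stem parts at 3 h. There 4 genes were higher in the hypocotyl (10.1% of all genes tested) and 2 were higher in the epicotyl (8.29%), by edgeR with both limits. These 4 are the genes that a pseudocount of 0.1 leaves out of the group, and with members chosen that way 1 was higher in the hypocotyl and 4 in the epicotyl. Without Solyc01g087840 and Solyc02g083040 the count higher in the hypocotyl was 3. The PR5-like gene Solyc08g080670 reached 3.62, 0.575 and 2.59 CPM in hypocotyl libraries with 0 counts in all 3 epicotyl libraries, which is at least 23.4-fold higher against a floor of 3 counts per library, 0.0966 CPM. The subtilisin-like gene Solyc01g087840 had 1 count in the 3 epicotyl libraries together, a ratio of 128 with a 95% counting interval of 20.8 to 4712. Such intervals and floors cover counting error only. The cytochrome gene Solyc04g063245 was higher in the hypocotyl by 1.66 ± 0.26 (adjusted p = 2.1e-07), and the CIPK-like gene Solyc08g067310 by 1.72 ± 0.55 (adjusted p = 0.0054). The last call was lost without epicotyl 24WL replicate 1, with 1.17 and an adjusted p of 0.056.

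The genes higher in the epicotyl were the PIP kinase gene Solyc01g096410, read at 9.36, 9.46 and 8.62 CPM there against 3.4, 2.74 and 2.86 CPM below the cotyledons, and ovate family protein 2, read at 5.73, 5.09 and 7.24 CPM against 1.27, 0.846 and 1.43 CPM. Their differences were -1.60 ± 0.20 (edgeR adjusted p = 5.5e-10) and -2.35 ± 0.25 (adjusted p = 1.6e-11) as hypocotyl minus epicotyl. In total 4 of the 15 genes stayed under 1 CPM in all 18 WT epicotyl libraries and 11 did not. A pseudocount of 1 keeps R low at such levels, so the rule favours such genes, and their share of all genes was not counted. The mean in white light was higher in the epicotyl than in the hypocotyl for 6 genes at 3 h, 4 at 6 h and 9 at 24 h. The means of 6 h and 24 h entered the rule, so their counts are a description. The share of all genes was not counted. In white light these times differ in hour of day, not in exposure to far-red. As chosen with a pseudocount of 1, the group differed in white light at 3 h. It joined genes hardly read in the upper stem with genes at or above the hypocotyl level there.

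**Figure D3:**
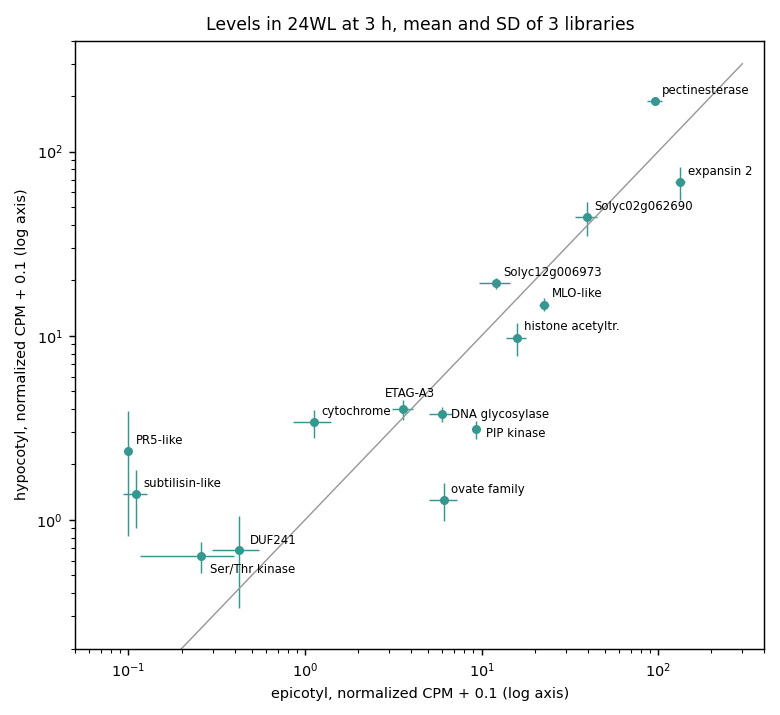
Mean and SD of 3 libraries in 24WL at 3 h for each gene, hypocotyl against epicotyl, as normalized CPM plus 0.1 on log axes, with a grey line where both are equal. The PR5-like and subtilisin-like genes lie far above the line, and the ovate family and PIP kinase genes below it.

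The rule did not look at the leafy organs, and 9 of the 15 genes were higher in 24FR in cotyledons at some time by adjusted p alone, 5 of them also in first leaf. The other 6 (Solyc08g080670, Solyc01g087840, Solyc02g083040, expansin 2, Solyc07g008100 and Solyc02g062690) passed in neither, which does not show that they were unchanged. Solyc02g083040 had R of 1.06 in cotyledons and 1.00 in first leaf at 6 h. Its first-leaf libraries then had 0.738, 0.626 and 0.418 CPM in 24WL and 2.04, 1.88 and 2.67 CPM in 24FR, on few counts. Solyc08g080670 had R of 0.95 in first leaf at 6 h and 0.82 in cotyledons at 24 h. For the rest of the 6, R did not pass 0.21 in either leafy organ. The rule therefore sets the group apart from the epicotyl only, not from the seedling as a whole. By adjusted p alone, 9 genes were higher in cotyledons at 6 h (8.28% of all genes) and 6 at 24 h (13.1%). With the fold limit, 0 were higher in cotyledons at 3 h (0.819% of all genes, with 5 at an unadjusted p under 0.05 and 1 in DESeq2), 2 at 6 h (1.56%) and 2 at 24 h (1.59%). By adjusted p alone 2 were higher at 3 h (3.96%).

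The pectinesterase gene Solyc06g051960 responded in cotyledons at every time. It had 62.2, 93.1 and 76.5 CPM in 24WL at 6 h and 205, 203 and 218 CPM in 24FR, a rise of 1.43 ± 0.09 log2 units (edgeR adjusted p = 1.4e-18). It rose by 1.00 ± 0.09 at 3 h (adjusted p = 2.8e-12) and by 1.22 ± 0.09 at 24 h (adjusted p = 9.9e-16). No 24FR cotyledon library overlapped a 24WL one at any of these times. The PIP kinase gene Solyc01g096410 had 1.61, 1.40 and 0.920 CPM in cotyledons in 24WL at 6 h and 5.79, 3.68 and 2.71 CPM in 24FR, a rise of 1.67 ± 0.25 (adjusted p = 1.1e-06). The cytochrome gene Solyc04g063245 had 30.9, 24.9 and 24.7 CPM at 24 h in 24WL and 56.8, 73.0 and 67.8 CPM in 24FR, a rise of 1.30 ± 0.18 (adjusted p = 1.0e-07). For this gene the cotyledon level at 24 h was above every hypocotyl library of the time course.

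In first leaf, 0 genes were higher at 3 h (0.492% of all genes, 4 at an unadjusted p under 0.05, 0 in DESeq2) and 0 at 6 h (1.04%, 8 at an unadjusted p under 0.05, 0 in DESeq2), by edgeR with both limits. At 24 h 2 were higher (0.607%). The CIPK-like gene Solyc08g067310 had 5.54, 5.39 and 4.39 CPM in 24WL and 12.4, 10.6 and 8.31 CPM in 24FR, a rise of 1.03 ± 0.26 (adjusted p = 0.0058). The cytochrome gene Solyc04g063245 had 8, 7.76 and 6.89 CPM in 24WL and 17.1, 14.6 and 14.2 CPM in 24FR, a rise of 1.02 ± 0.20 (adjusted p = 2.2e-04). Both calls were lost without 24FR replicate 1 (0.89 and 0.93) or without 24WL replicate 3 (0.93 and 0.96), the second gene by the fold limit alone. By adjusted p alone, 2 genes were higher in first leaf at 3 h (2.85%), 4 at 6 h (7.44%) and 4 at 24 h (4.28%). No member was lower in either leafy organ with both limits in edgeR or in DESeq2 (0 of 15), and 1 was lower at an unadjusted p under 0.05, in first leaf at 3 h. The share of all genes lower with both limits was 0.464%, 1.52% and 0.979% in cotyledons and 0.212%, 1.21% and 0.521% in first leaf at 3, 6 and 24 h.

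**Figure D4:**
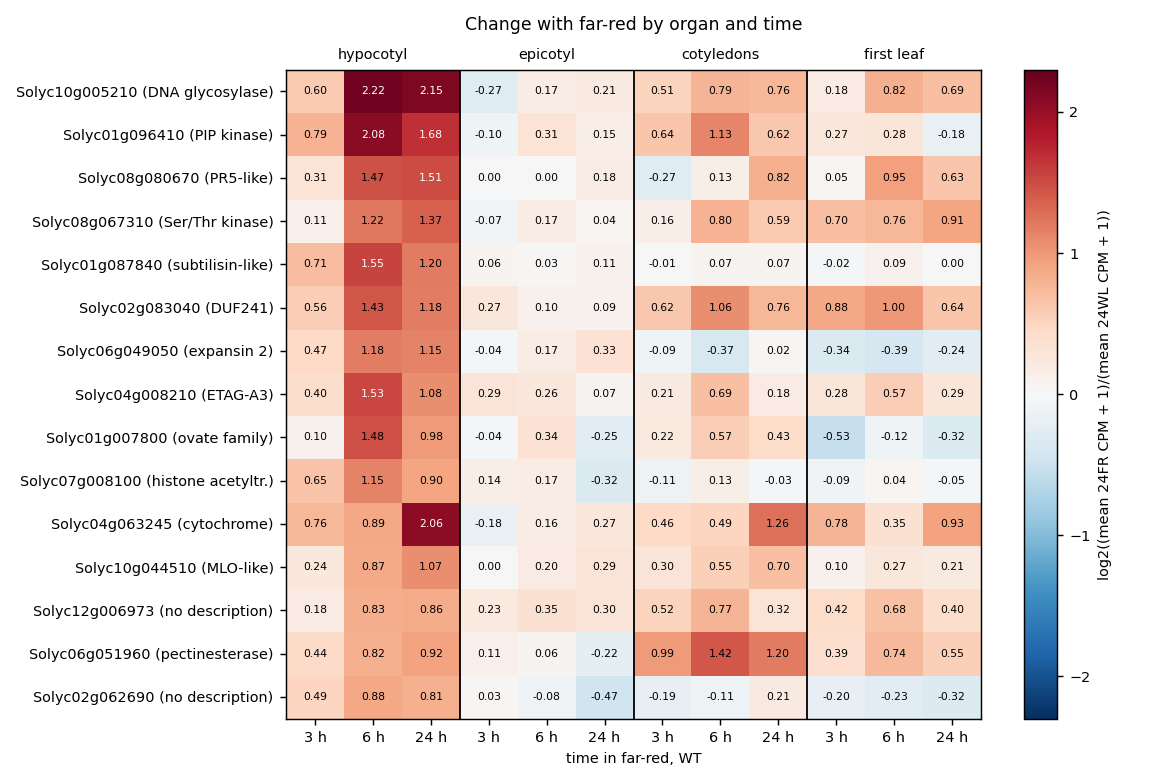
R, the log2 ratio of mean CPM plus 1 in 24FR to that in 24WL, for the 15 genes in 4 WT organs at 3, 6 and 24 h. Hypocotyl at 6 h and 24 h (at least 0.81) and epicotyl at 6 h and 24 h (at most 0.35) were fixed by the rule, while values in cotyledons and first leaf were free to vary and differ from gene to gene.

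Since slpifq differs from slpif8a in SlPIF4, SlPIF7a and SlPIF7b at the same time, the values below do not separate these genes. In slpif8a the light response was tested within the mutant's own hypocotyl libraries. All 15 fitted changes at 6 h were above 0, with a median of 1.18 log2 units, against 48.7% of all genes and a median of -0.006. With both limits 7 of the 15 genes rose (1.17% of all genes, edgeR, 17460 genes). Over the 13 genes that passed the filter outside 24FR libraries, 5 rose with both limits and the median was 1.08. By adjusted p alone 10 rose (7.11%), and 11 had every 24FR library above every 24WL library (16.7%). The PIP kinase gene Solyc01g096410 had 2.59, 1.99 and 1.99 CPM in 24WL and 9.05, 6.36 and 13.2 CPM in 24FR, a rise of 2.12 ± 0.27 (adjusted p = 6.2e-08). The DUF241 gene Solyc02g083040 had 0.575, 0.647 and 0.898 CPM in 24WL and 2.10, 3.42 and 3.15 CPM in 24FR, a rise of 2.02 ± 0.50 (adjusted p = 0.0032) in a gene that reached the test only through 24FR libraries. The CIPK-like gene Solyc08g067310 rose by 2.00 ± 0.44 (adjusted p = 8.3e-04), from 0.374, 0.466 and 1.15 CPM to 1.09, 2.61 and 4.31 CPM, with 1 library of each light overlapping.

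Ovate family protein 2 had 1.26, 0.931 and 1.09 CPM in slpif8a hypocotyl in 24WL and 2.51, 1.89 and 3.09 CPM in 24FR, a rise of 1.18 ± 0.27 (edgeR adjusted p = 0.0016). The remaining 3 calls were each lost on leaving out a library. The DNA glycosylase gene Solyc10g005210 had 4.29, 5.02 and 6.82 CPM in 24WL and 12.1, 9.15 and 27.1 CPM in 24FR, a rise of 1.58 ± 0.34 (adjusted p = 6.7e-04) that became 0.98 with an adjusted p of 0.070 without 24FR replicate 3. ETAG-A3 rose by 1.08 ± 0.28 (adjusted p = 0.0045), and by 0.97 without 24FR replicate 2. The subtilisin-like gene Solyc01g087840 rose by 1.32 ± 0.41 (adjusted p = 0.022), a call lost without 24FR replicate 2 or 3 or 24WL replicate 1 or 3, with adjusted p from 0.066 to 0.140, and it too reached the test only through 24FR libraries. Expansin 2, at 26.6, 23.8 and 19.7 CPM in 24WL and 55.0, 21.5 and 82.3 CPM in 24FR, changed by 1.18 ± 0.45 and did not pass (adjusted p = 0.068).

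In slpif8a epicotyl 1 of the 15 genes rose at 6 h (1.48% of all genes), ETAG-A3, with 1.44, 1.14 and 0.949 CPM in 24WL and 2.10, 3.93 and 3.63 CPM in 24FR, by 1.44 ± 0.36 (edgeR adjusted p = 0.0027). By these calls ETAG-A3 rose in both stem parts of the mutant, at a few CPM in each. The hypocotyl call was lost without 1 library. The epicotyl call was lost with limma at a pseudocount of 1 and in a fit to epicotyl libraries only. In slpif8a epicotyl 5 genes had every 24FR library above every 24WL library (19.5% of all genes). The response in the hypocotyl exceeded that in the epicotyl of slpif8a for 1 of the 15 genes (0.143% of all genes), the PIP kinase gene Solyc01g096410, by 1.58 ± 0.37 (adjusted p = 0.046). Its epicotyl libraries went from 7.01, 7.04 and 6.09 CPM to 10.2, 9.23 and 9.93 CPM. That call was lost on leaving out any of 11 of the 12 libraries in turn, with adjusted p from 0.059 to 0.338, and was kept without hypocotyl 24FR replicate 2.

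In slpifq hypocotyl 0 of the 15 genes rose at 6 h (edgeR, 0.699% of all genes), with 5 at an unadjusted p under 0.05 and 0 in DESeq2. The median change was 0.39 log2 units and 13 of the 15 changes were above 0, against a median of 0 and 49.9% of all genes. Over the 13 genes that passed the filter outside 24FR libraries, 11 changes were above 0 and the median was 0.36. Every 24FR library was above every 24WL library for 5 genes (11.0% of all genes). The subtilisin-like gene Solyc01g087840 had 1.04, 1.22 and 1.13 CPM in 24WL and 2.58, 2.17 and 3.26 CPM in 24FR, a change of 1.23 ± 0.42 (adjusted p = 0.076). The pectinesterase gene Solyc06g051960 had 198, 193 and 206 CPM in 24WL and 223, 246 and 294 CPM in 24FR, a change of 0.35 ± 0.11 (adjusted p = 0.052). Neither gene's groups overlapped, and neither passed. In slpifq epicotyl 0 genes rose (edgeR, 0.326% of all genes, 2 at an unadjusted p under 0.05, 0 in DESeq2) and 2 had no overlap between the lights (12.9%), and the hypocotyl response exceeded the epicotyl response for 0 genes (0.0286%, 0 at an unadjusted p under 0.05, 0 in DESeq2).

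**Figure D5:**
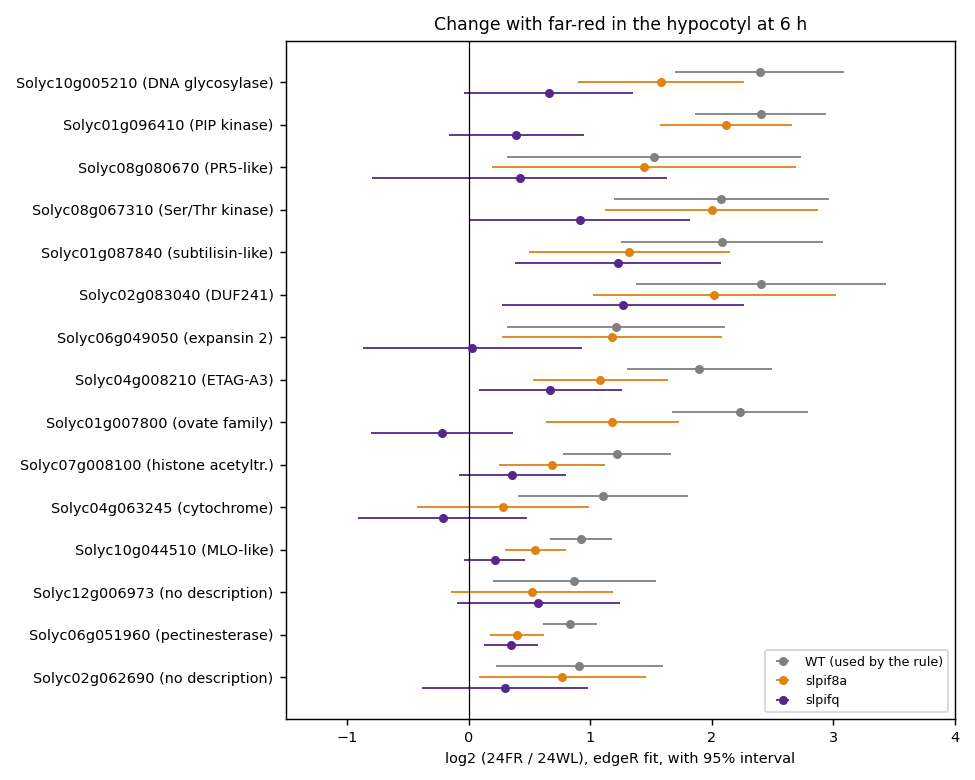
Log2 change from 24WL to 24FR in the hypocotyl at 6 h with the 95% interval of the edgeR fit, for WT (grey, used by the rule), slpif8a (orange) and slpifq (purple), 3 libraries against 3 in each. All 15 slpif8a points and 13 of the 15 slpifq points lie above 0.

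Since WT at 6 h chose the genes, WT and mutants are set side by side without a test. The fitted change in the hypocotyl was smaller in slpif8a than in WT, and smaller in slpifq than in WT, for all 15 genes. The choice of genes for a high WT value cannot be told apart from an effect of genotype in these differences. The PIP kinase gene Solyc01g096410 changed by 2.40 in WT, 2.12 in slpif8a and 0.39 in slpifq. Ovate family protein 2 changed by 2.23 in WT, 1.18 in slpif8a and -0.22 in slpifq. Expansin 2 changed by 1.21 in WT, 1.18 in slpif8a and 0.03 in slpifq.

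The mutants could be tested against each other, as neither entered the rule. In 24FR hypocotyl at 6 h, 2 of the 15 genes were lower in slpifq than in slpif8a (0.378% of all genes, edgeR with both limits), and 4 had every slpifq library below every slpif8a library (7.19%). For the PIP kinase gene Solyc01g096410 the slpifq libraries read 2.35, 2.87 and 4.20 CPM, against 9.05, 6.36 and 13.2 CPM for slpif8a, a difference of -1.61 ± 0.27 (adjusted p = 1.5e-04). For ovate family protein 2 they read 1.11, 1.19 and 1.05 CPM, against 2.51, 1.89 and 3.09 CPM for slpif8a, a difference of -1.15 ± 0.28 (adjusted p = 0.016). The second call was lost without slpif8a 24FR replicate 3 (-0.97, adjusted p = 0.182), slpifq 24FR replicate 1 (adjusted p = 0.10) or slpifq 24FR replicate 3 (adjusted p = 0.061). The light response itself was smaller in slpifq than in slpif8a for 1 gene (0.103% of all genes), Solyc01g096410, by -1.73 ± 0.38 (adjusted p = 0.044). This was lost on leaving out any of 10 of the 12 libraries in turn, with adjusted p from 0.055 to 0.351, and kept without slpif8a 24FR replicate 2 or slpifq 24FR replicate 3.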

How the data were processed

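RNA from pools of 4 seedlings was sequenced single-end from stranded mRNA libraries. Per the methods, the authors used CASAVA 1.8.2, aligned to tomato SL4.0 with STAR 2.7.9a, counted with HTSeq 0.13.5 (intersection-strict, reverse strand) and normalized with edgeR 3.40.2. The deposited counts are raw reads per gene, and the deposited normalized CPM is a signal scaled to effective library size, in a time-course and a genotype table of 72 libraries each. The 24 WT libraries at 6 h are in both, with identical counts. Reads given to no gene were 8.54% to 17.0%.

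The counts were refitted per table in R 4.3.3 with edgeR 4.0.16 (TMM, quasi-likelihood test, 1 mean per group, CPM above 5 in at least 3 libraries, Benjamini-Hochberg adjustment over all genes tested). Calls needed an adjusted p below 0.05 and a log2 change above 1, and differences between responses an adjusted p below 0.05. limma 3.58.1 and DESeq2 1.42.0 were alternatives. The scripts were tested on simulated data. The members and lists were chosen with earlier results of these data known. Genes were named by family, size of the rule's values, lowest adjusted p and nearness to its limits. No sequences are shown, as the 15 genes matched 0 entries of the reference table.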

Additional observations from a re-analysis of the deposited data

Results flagged for a closer look

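The PIP kinase gene Solyc01g096410 responded to 24FR more in the hypocotyl than in the epicotyl of slpif8a at 6 h, by 1.58 log2 units, in a direct test of the difference between the organs. The same gene responded less in slpifq than in slpif8a hypocotyl, by -1.73 log2 units, in a direct test of the difference between the mutants. These comparisons share the slpif8a hypocotyl libraries. The first call was lost on leaving out any of 11 of its 12 libraries in turn and the second on leaving out any of 10 of 12, and both were lost with no filter on low counts and with limma at a pseudocount of 0.1.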

How the results depend on the processing

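Of 297 recomputed counts over 26 count results, 248 stayed within 1.5 times the reported count and 49 did not. A count of 0 that stayed 0 was taken as within, and a count cannot show a reversal of direction. Among single genes called in the main fit, 0 alternatives reversed the sign of the change. Members higher in WT hypocotyl at 3 h went from 1 to 0 with DESeq2, its size factors, no filter, a CPM filter of 1, limma with pseudocount 1 or 0.1, members chosen with pseudocount 0.1, or only the 13 members that passed the filter outside 24FR libraries (chosen after seeing the data), and to 6 by adjusted p alone. The larger hypocotyl response at 3 h went from 0 to 2 with the likelihood ratio test or DESeq2, and to 1 in a fit to the same organs. Cotyledon counts at 3 h went from 0 to 1 with DESeq2, its size factors, no filter, the same organs or members at 0.1, and to 2 by adjusted p alone, at 6 h from 2 to 9 by adjusted p alone and 5 with members at 0.1, and at 24 h to 6 and 4. Leaf counts became 2 and 1 at 3 h, and 4 and 2 at 6 h (1 with limma at 0.1), under the same changes, and at 24 h went from 2 to 0 with limma at 1 and to 4 by adjusted p alone. Genes higher in hypocotyl in 24WL went from 4 to 1 with members at 0.1, and those higher in epicotyl from 2 to 6 by adjusted p alone and 4 with members at 0.1. In slpif8a, the hypocotyl count went from 7 to 4 with limma at 1, the epicotyl count from 1 to 2 with the likelihood ratio test and to 0 with limma at 1 or the same organs, and the hypocotyl excess from 1 to 0 with DESeq2 size factors, no filter or limma. The slpifq hypocotyl count went from 0 to 1 with members at 0.1. Genes lower in slpifq than slpif8a went from 2 to 1 with limma at 1 or the same organs, and the smaller response from 1 to 0 with no filter, limma at 0.1 or the same organs. The cause of these changes was not tested.

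Leaving out 1 library at a time gave 0 to 1 genes for WT hypocotyl at 3 h, the larger hypocotyl response at 3 h, cotyledons at 3 h, leaf at 6 h, slpifq hypocotyl, the slpif8a hypocotyl excess and the smaller slpifq response. It gave 2 to 6 genes higher in cotyledons at 6 h (0 to 1 lower), 2 to 3 at 24 h, 0 to 2 in leaf at 24 h, 3 to 5 higher in hypocotyl and 2 to 3 in epicotyl in 24WL, 5 to 8 in slpif8a hypocotyl and 1 to 3 lower in slpifq.

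Same-numbered 24WL and 24FR libraries were compared within an organ, time and genotype, and pairs across organs were not examined. The replicate block joined same-numbered libraries of all organs within a time of the WT series or within a genotype. Over 20 conditions, 36 of 60 same-numbered pairs correlated above 0.1 (-0.27 to 0.62) and 37 best with their own number. This is a hint of shared structure that the labels do not state. Pairs of replicate 1 correlated above 0 in 19 of the 20 conditions. All 3 pairs passed 0.1 in 4 conditions (WT hypocotyl and cotyledons at 24 h, slpif8a hypocotyl and slpifq epicotyl), where a block moved no count by over 1.5 times (slpif8a hypocotyl 8). In the others not every pair passed it, so the numbers were not taken to pair the libraries. Shared structure within or across organs is not excluded. In these other conditions, with a replicate block the count became 1 in place of 0 for the larger hypocotyl response at 3 h, leaf at 6 h and slpifq hypocotyl. Members under 1 CPM rest on few counts, and their small changes were not detectable at this depth.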
